A study of Rattus norvegicus with 2 samples.

Results

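The 30 genes described here make cholesterol, sense it, move it and export it. They were chosen by name: enzymes from the condensation of acetyl units to cholesterol, the transcription factor SREBP2 with the proteins that hold or release it, and genes of sterol transport, esterification and efflux. All 30 had at least 1 non-control probe whose RefSeq accession carried the gene's name, of 13837 genes that could be named on the array. The only probe of Hsd17b7 bore an outlier flag on both arrays and was set aside, which left 29 of 13667 genes. Of these, 27 were well above background on both arrays and are called measured, out of 7803 measured genes in all.

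Liver RNA of Sprague Dawley rats came from 2 groups, animals dosed with sodium chloride (control) and animals dosed intragastrically with senecionine at 35 mg/kg, and was taken at 36 h. Senecionine is a hepatotoxic pyrrolizidine alkaloid of ragwort-type plants. RNA of 3 animals was pooled for each group and hybridised to 1 one-colour Agilent array, so there was no replicate, no test was made, and no spread between animals can be given. The sex and age of the rats are not given in the sources used here.

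Cholesterol is built in the endoplasmic reticulum from acetyl units, first to mevalonate, then to isoprenoid diphosphates, then to squalene, and finally through a series of sterols. When membrane cholesterol is low, the escort protein SCAP carries SREBP2 to the Golgi, where it is cut and released to switch on most genes of the pathway. When sterols are plentiful, INSIG proteins hold SCAP back, and oxysterols activate the LXR receptors, which turn on sterol efflux. Liver is a main site of cholesterol synthesis and the organ that disposes of it as bile acids.

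Promoter sequence was looked up because these genes are known for shared control by SREBP2, which binds sterol regulatory elements, usually beside NF-Y and Sp1. Of the 30 genes, 25 had an entry in the RefSeq promoter table (GRCr8, 250 bases before to 50 after the annotated start). Pmvk, Fdft1, Sqle, Stard4 and Soat2 had none. Both strands were searched. The letters TCACNCCAC, a form of the sterol regulatory element, were in 0 of the 25 windows, against 1.12% of all 33469 windows. At so low a share, 25 windows are too few to show a lack of these letters. The shorter CACNCCAC, which lies within the longer form, was in 3 of 25 (12%), against 5.80% of all windows and 5.29% of the 6749 windows of measured genes. The NF-Y box CCAAT was in 17 of 25 (68%), against 37.5% of all windows and 38.6% of those of measured genes, and the Sp1 box GGGCGG in 19 of 25 (76%), against 33.1% and 59.5%. Both boxes stood together in 13 of the 25 windows (52%), against 22.9% of the windows of measured genes, and neither was in those of the receptor genes Nr1h3 and Nr1h2. These shares describe letters in short windows and do not show binding.

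The 3 windows with the shorter sterol element are those of Ebp, Insig1 and Acat2, given 5′ to 3′ on the gene's strand with every match to CACNCCAC, CCAAT and GGGCGG, on either strand, in capitals. They are shown because they alone hold these letters. The 3 genes differ in their values: Ebp was lower after senecionine, all 4 probes of Insig1 were higher, and Acat2 was within its spot error. Ebp lies at chrX:16971212-16971511 (plus strand), Insig1 at chr4:8057720-8058019 (minus strand) and Acat2 at chr1:50100590-50100889 (plus strand), all in GRCr8.
Ebp: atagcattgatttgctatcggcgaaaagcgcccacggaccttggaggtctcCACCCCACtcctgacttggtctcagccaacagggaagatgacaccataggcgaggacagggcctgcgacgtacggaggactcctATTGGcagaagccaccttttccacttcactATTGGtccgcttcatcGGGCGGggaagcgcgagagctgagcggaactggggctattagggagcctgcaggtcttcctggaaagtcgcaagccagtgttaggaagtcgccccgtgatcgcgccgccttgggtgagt
Insig1: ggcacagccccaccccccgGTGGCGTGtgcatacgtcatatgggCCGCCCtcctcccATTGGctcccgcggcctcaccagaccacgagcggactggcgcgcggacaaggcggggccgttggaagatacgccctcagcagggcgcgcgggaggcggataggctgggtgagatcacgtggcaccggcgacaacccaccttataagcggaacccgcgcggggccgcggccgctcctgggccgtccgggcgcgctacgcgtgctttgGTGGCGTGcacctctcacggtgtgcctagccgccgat
Acat2: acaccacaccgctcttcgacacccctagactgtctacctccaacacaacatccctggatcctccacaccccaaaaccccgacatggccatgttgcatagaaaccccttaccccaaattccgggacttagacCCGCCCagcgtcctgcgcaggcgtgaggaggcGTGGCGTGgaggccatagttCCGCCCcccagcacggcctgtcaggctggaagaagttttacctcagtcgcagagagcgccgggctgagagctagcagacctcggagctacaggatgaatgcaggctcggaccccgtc
The sterol element letters begin 199 bases before the start of Ebp and 87 bases before that of Acat2, and in Insig1 they occur 2 times, 231 bases before the start and at base 14 after it.

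Compared with the control array, the senecionine array had 6 of the 27 measured sterol genes at least 2-fold lower, 0 at least 2-fold higher and 21 within 2-fold. The 6 were the enzymes Hmgcs1, Tm7sf2, Ebp and Nsdhl, the cholesterol-esterifying enzyme Soat2 and the oxysterol receptor Nr1h3. Among all measured genes 17.7% were at least 2-fold lower and 11.2% at least 2-fold higher, so the members' share of lower genes (22.2%) lay near the background. The members' median log2 ratio (senecionine minus control) was -0.57 beside -0.14 for all measured genes, and 19 of the 27 were below 0, where 56.3% of all measured genes were. Their ratios ran from -2.11 to 0.63. The error given below was propagated from the error that the scanner software assigns to each spot. It is technical and holds nothing of the spread between animals. Its median over the members was 0.20, and it leaves out disagreement between probes of a gene, which reached 1.22 for Hmgcs1 and 1.18 for Npc1. By that error, 15 of the 27 were lower and 3 higher by more than 2 spot errors, and 9 were within 2. Of all measured genes, 36.2% were lower and 25.3% higher by the same measure. In bulk liver RNA, fewer cells of a type and less RNA per cell cannot be told apart.

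**Figure D1:**
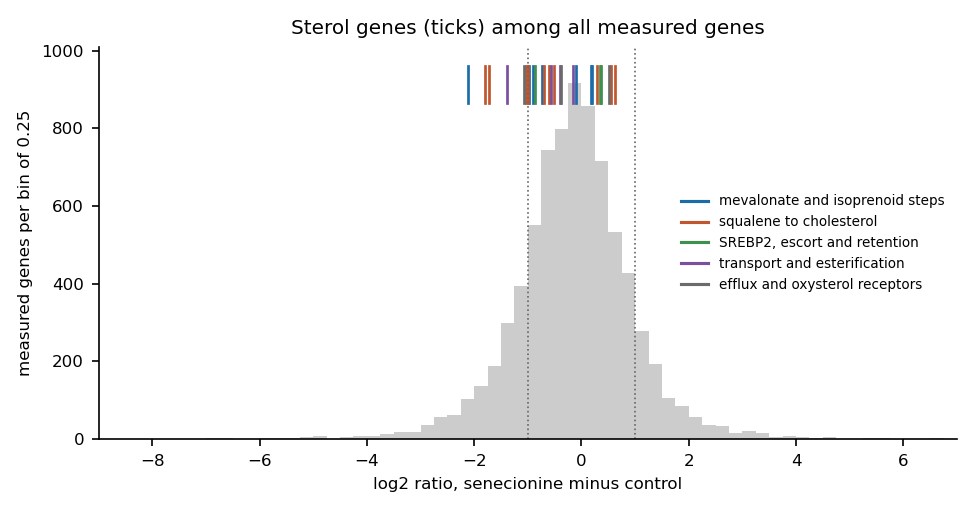
Histogram of log2 ratios (senecionine minus control, x axis) of all 7803 measured genes, as genes per bin (y axis), with the 27 measured sterol genes as ticks coloured by role. The ticks run from -2.11 to 0.63, and 6 of them lie left of the dotted line at a 2-fold decrease.

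The arrays differed in what they detected. Of 43379 non-control spots each, 44.4% were detected (well above background) in the control pool and 64.1% after senecionine. Of all named genes, 19.1% were detected after senecionine only and 1.26% in the control pool only. The lowest signal that counted as detected was 20.6 intensity units in the control pool and 10.8 after senecionine, so a dim gene could be detected more readily on the latter. The marker counts below stand beside 17.7% of all measured genes at least 2-fold lower and 11.2% at least 2-fold higher. Of a fixed list of brain markers, 14 of 19 were detected on each array. Of the 11 measured, however, 9 (81.8%) were at least 2-fold lower after senecionine (median log2 ratio -2.80). The summed unscaled signal of the 11 was 8344 intensity units in the control pool and 819.7 after senecionine. Mbp (log2 ratio -6.43, other probe -4.95), Tubb3 (-4.32), Cldn11 (-4.28) and Mag (-4.05) differed most, Stmn2 and Gad1 were detected on neither array, Snap25, Nefm and Ugt8 in the control pool only, and Syt1, Gfap and Opalin after senecionine only. Nervous tissue also expresses cholesterol synthesis genes, and the part of this signal in the lower ratios below was not tested. Of 7 measured hepatocyte markers 3 (42.9%) were at least 2-fold lower (median -0.57): Asgr2 (-1.53), Alb (-1.14) and Cps1 (-1.13). The lower count was 1 with quantile normalization, cyclic loess or normexp correction, and 5 with outlier-flagged spots kept. The highest of that list was Apob, at 0.54, with its other probes from 0.23 to 1.36. Fgb was at -0.34, with another probe at 0.58. At least 2-fold higher were 0 of these markers, but 1 with quantile normalization or the authors' values. The 7 summed to 368724 and 346874 units. All sums in this paragraph are of unscaled signal, in the order control and senecionine. The 75th percentiles of these arrays were 101 and 134 units, so the sums alone do not compare amounts between arrays. Of 8 measured macrophage markers 3 (37.5%) were higher and 2 (25%) lower by at least 2-fold, and the 8 summed to 17535 and 36364 units. Gpnmb was at 3.66, Clec4f at -3.17, Lgals3 at 2.91 and Adgre1 at -1.28. The 3 measured neutrophil markers, S100a9 (6.53), S100a8 (6.28) and Itgb2 (1.73), were at least 2-fold higher and summed to 367 and 10229 units. Of 8 named neutrophil markers, 4 (50%) were detected after senecionine only, beside 19.1% of all named genes. The 4 were Elane, Camp, Cxcr2 and Csf3r, and Ngp was detected on neither array. The part of these cells in the sterol results was not tested.

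In the first steps, from acetyl units to isoprenoid diphosphates, 1 of 7 measured genes was at least 2-fold lower and 0 at least 2-fold higher (median log2 ratio -0.73). The share lower was 14.3%, beside 17.7% of all measured genes, of which 11.2% were higher. Signals are given as multiples of each array's 75th percentile, and serve to compare arrays for the same probe and not to compare genes. Hmgcs1, the cytosolic synthase that makes HMG-CoA, had a signal of 86.7 in the control pool and 20.1 after senecionine, 4.32-fold lower (log2 ratio -2.11 ± 0.20). Its dimmer probe went from 5.30 to 2.86, a log2 ratio of -0.89 ± 0.21. Both probes were lower on the senecionine array, but they differed by 1.22 on the log2 scale, and the dimmer one stayed within 2-fold. Only 3.81% of all measured genes had a lower ratio than the brighter probe.

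Mevalonate kinase, Mvk, adds the first phosphate to mevalonate, and Mvd decarboxylates the diphosphate to isopentenyl diphosphate. Mvk had signals of 4.02 in the control pool and 2.04 after senecionine (log2 ratio -0.98 ± 0.20). Mvd had signals of 7.36 and 3.96 (-0.90 ± 0.20). Both were lower after senecionine and just short of 2-fold. Pmvk, the kinase between them, had 1.94 and 2.21, and its log2 ratio of 0.19 ± 0.21 was within the spot error.

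Acat2, the cytosolic thiolase that joins acetyl units at the entry of the pathway, was at 15.5 in the control pool and 17.5 after senecionine, a ratio of 0.17 ± 0.20 within the spot error. Idi1, the isopentenyl diphosphate isomerase, was at 66.3 and 61.8 on its brighter probe (-0.10 ± 0.20) and at 4.41 and 6.25 on the other (0.50 ± 0.20). Its probes thus parted in sign, and the gene has no direction here. Fdps, which joins isoprenoid units to farnesyl diphosphate, was at 94.0 and 56.6 (-0.73 ± 0.20), with 73.6 and 60.7 on its other probe (-0.28 ± 0.20). The ratio of Fdps moved to 0.01 with normexp background correction. Ggps1, the synthase of geranylgeranyl diphosphate, was well above background on neither array.

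**Figure D2:**
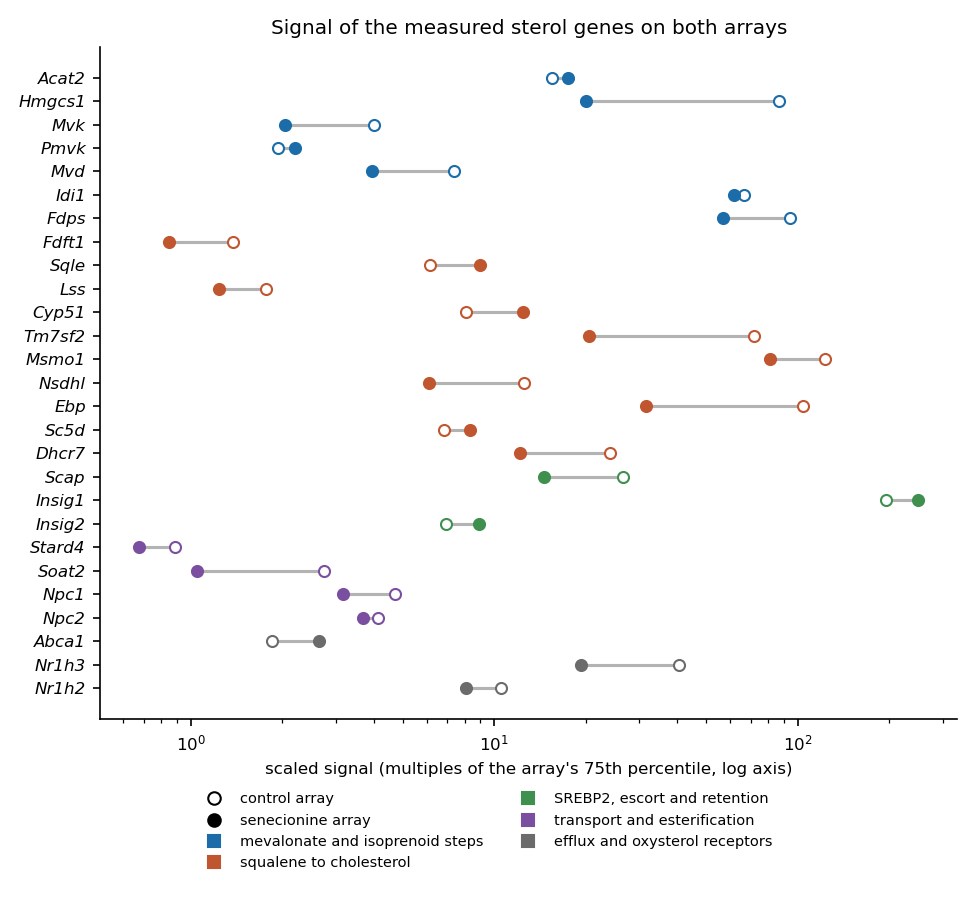
Scaled signal (x axis, multiples of each array's 75th percentile, log axis) of the 27 measured sterol genes (rows) on the control array (open) and the senecionine array (filled), coloured by role. Points are to be compared within a row: Hmgcs1 goes from 86.7 to 20.1 and Ebp from 104 to 31.7, while Cyp51 goes from 8.04 to 12.5.

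From the making of squalene to cholesterol, 3 of 10 measured enzymes (30%) were at least 2-fold lower and 0 higher (median -0.65). Of all measured genes, 17.7% were lower and 11.2% higher. Some steps differed from each other by more than their spot errors, and others did not. Spot errors leave out disagreement between probes of a gene. Tm7sf2, a sterol reductase that acts after the removal of the methyl group of lanosterol, was at 71.8 in the control pool and 20.6 after senecionine, 3.49-fold lower (-1.80 ± 0.20). Ebp, the sterol isomerase that moves the ring double bond, was at 104 and 31.7, 3.29-fold lower (-1.72 ± 0.20). Nsdhl, a dehydrogenase that takes part in removing further methyl groups, was at 12.6 and 6.11, 2.06-fold lower (-1.04 ± 0.20). Each of the 3 has 1 probe, so only 5 of the 10 alternative settings, those of scaling and background correction, can move its ratio. Under these 5 Tm7sf2 and Ebp kept a ratio past 2-fold, whereas Nsdhl lay within 2-fold with quantile normalization, cyclic loess, normexp correction and the 75th percentile over probes detected on both arrays.

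Against these, 3 enzymes of the same stretch had ratios above 0. Cyp51, the cytochrome that removes a methyl group from lanosterol just before Tm7sf2 acts, was at 8.04 in the control pool and 12.5 after senecionine (log2 ratio 0.63 ± 0.20, 1.55-fold). Sqle, the squalene epoxidase, which limits sterol synthesis in many cells, was at 6.12 and 8.98 (0.55 ± 0.20, 1.47-fold). Sc5d, a late desaturase, was at 6.82 and 8.29 (0.28 ± 0.20). All stayed within 2-fold, and their ratios were above 0 under each of the 5 settings that can move them. Within these arrays the ratio of Cyp51 exceeded that of Tm7sf2 by 2.44 ± 0.29 on the log2 scale and that of Ebp by 2.35 ± 0.29, and the ratio of Sqle exceeded that of Hmgcs1 by 2.66 ± 0.29, differences that scaling by a constant does not touch. With the dimmer probe of Hmgcs1 the last difference is smaller, since that probe was at -0.89.

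The other enzymes of this stretch were below 0 and within 2-fold. Dhcr7, the reductase of the last step, was at 24.1 in the control pool and 12.1 after senecionine (-0.99 ± 0.20), just short of 2-fold. Fdft1, squalene synthase, was at 1.38 and 0.848 (-0.70 ± 0.21). Msmo1, the methylsterol oxidase, was at 123 and 80.8 (-0.61 ± 0.20). Lss, which closes the sterol rings, was at 1.76 and 1.24 (-0.50 ± 0.21). All 4 ratios were below 0 in the 5 settings that can move them. Hsd17b7, the ketoreductase that works with Nsdhl, had signals of 13.3 and 5.02 on the flagged spot, a log2 ratio of -1.41, given for completeness and not counted.

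**Figure D3:**
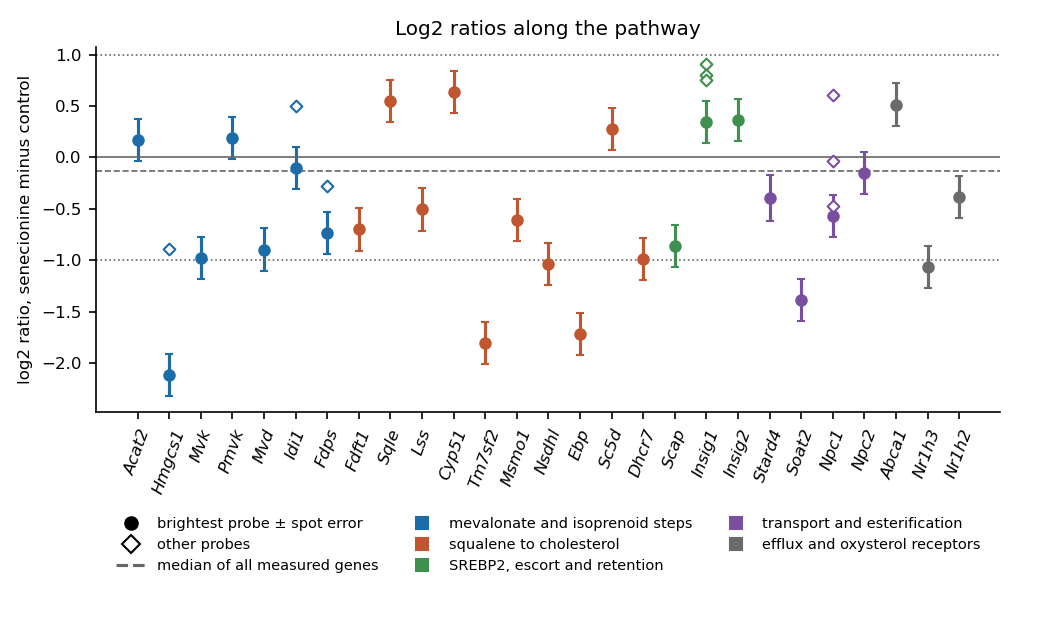
Log2 ratio, senecionine minus control (y axis), of the brightest probe of each measured sterol gene (filled, ± spot error) and of its other probes (diamonds), in pathway order (x axis). Dotted lines mark 2-fold and the dashed line the median of all measured genes at -0.14; Hmgcs1, Tm7sf2, Ebp and Soat2 lie lowest, and Cyp51, Sqle, Abca1 and the Insig1 probes lie above 0.

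The genes that govern SREBP2 parted. None of the 3 measured was past 2-fold. Insig1, a retention protein whose gene is itself a known target of SREBP, was at 196 in the control pool and 249 after senecionine on its brightest probe (0.35 ± 0.20, 1.27-fold). Its other 3 probes gave log2 ratios of 0.91, 0.80 and 0.75, each ± 0.20. All 4 probes were higher on the senecionine array, with a mean of 0.70 and an SD of 0.25 between probes, which share the RNA and are not replicates. In the authors' deposited table, a list of probes past 2-fold, 2 of these probes are listed as higher, with log2 differences of 1.27 and 1.02.

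Insig2, the second retention protein and known in liver for control by other signals than SREBP, was at 6.93 in the control pool and 8.91 after senecionine (0.36 ± 0.20). Scap, the escort of SREBP2, was at 26.6 and 14.6 (-0.87 ± 0.20, 1.82-fold lower). The ratio of Insig1 exceeded that of Scap by 1.21 ± 0.29 on the log2 scale. Srebf2, the gene of SREBP2 itself, was dim on both its probes. The brighter of them was detected after senecionine only, at 0.0954, which is below its undetected signal of 0.135 in the control pool, so it has no fold and no direction. Transcript levels say nothing of how much SREBP2 is cut and released.

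Among genes that move or esterify sterols, 1 of 4 (25%) was at least 2-fold lower (median -0.48), beside 17.7% of all measured genes. Soat2, the enzyme that esterifies cholesterol in hepatocytes, was at 2.74 in the control pool and 1.05 after senecionine, 2.62-fold lower (-1.39 ± 0.21), and was past 2-fold in the 5 settings that can move its 1 probe. Stard4, a carrier of free cholesterol between membranes and an SREBP2 target, was at 0.889 and 0.677 (-0.39 ± 0.22). Npc2, which takes up cholesterol inside lysosomes, was at 4.13 and 3.71, within the spot error (-0.16 ± 0.20). Npc1, the membrane protein that receives it there, was at 4.71 and 3.17 on its brightest probe (-0.57 ± 0.20). The other 3 probes of Npc1 detected on both arrays gave -0.47, -0.03 and 0.61, so they differed by up to 1.18 on the log2 scale and in sign.

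Of the genes of efflux and oxysterol sensing, Nr1h3, the LXR alpha receptor of liver, was at 40.5 in the control pool and 19.3 after senecionine, 2.09-fold lower (-1.07 ± 0.20). It lay within 2-fold under the same 4 settings as Nsdhl. Nr1h2, the widely expressed LXR beta, was at 10.5 and 8.08 (-0.38 ± 0.20). Abca1, the pump that loads cholesterol onto apolipoproteins and an LXR target, was at 1.86 and 2.65 (0.51 ± 0.21). Its ratio exceeded that of Nr1h3 by 1.58 ± 0.29 on the log2 scale.

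Further genes of the pathway were read from lists fixed by name. Of 21 measured among 32 other sterol genes, 6 (28.6%) lay at least 2-fold below the control and 0 above (median -0.46). Of all measured genes, 17.7% lay below and 11.2% above. Scarb1, the receptor for high-density lipoprotein cholesterol, went from 1044 to 395 intensity units before scaling (log2 ratio -1.81 ± 0.20, other probe -1.67). Cyb5r3, which passes electrons to sterol oxidases, went from 2930 to 1406 (-1.47 ± 0.20, other probe -1.11), and Lcat, which esterifies cholesterol in plasma, from 9950 to 5372 (-1.30 ± 0.20). The fatty acid elongase Elovl5, kept in this list and in that of fatty acid synthesis, had a ratio of -1.96 ± 0.21.

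LXR targets and their receptor were at least 2-fold lower in 3 (37.5%) and higher in 1 (12.5%) of 8 measured genes (median -0.61). Of all measured genes, 17.7% were lower and 11.2% higher. Nr1h3 and Abca1 count in this list again. Abcg5, a part of the pump that moves sterols into bile, had a ratio of -2.39 ± 0.23 and the lipid transfer protein Pltp one of -1.77 ± 0.21. Abcg1, which exports cholesterol to high-density lipoprotein, had a ratio of 1.06 ± 0.21, within 2-fold with median scaling and with normexp correction. The efflux genes Abca1 and Abcg1 were thus above 0 and Abcg5 below it on the same arrays.

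The neighbouring lipid lists had lower medians. Of 15 measured genes of fatty acid synthesis under SREBP1, 8 (53.3%) lay at least 2-fold below the control and 0 above (median -1.40). Of all measured genes, 17.7% lay below and 11.2% above. Among the 8 were the desaturases Scd (-2.88), Fads2 (-2.60) and Fads1 (-2.03). The count below was 7 with normexp correction or the authors' values and 9 with the dimmest probe. With outlier-flagged spots kept, 1 lay above. Me1, within 2-fold at -0.0009, had another probe at -1.85. Of 11 measured genes of bile acid synthesis, which consumes cholesterol, 7 (63.6%) were lower and 1 (9.09%) higher (median -1.12). The lower count was 5 with quantile normalization, cyclic loess, normexp correction or the authors' values. It was 6 with the mean or dimmest probe or the 75th percentile over detected probes, and 8 with outlier-flagged spots kept. Akr1d1, counted as lower at -1.04, had another probe at 0.57. Cyp8b1 had a ratio of -4.75, the rate-limiting Cyp7a1 one of -2.14 and Amacr one of -1.93. Cyp7b1, an oxysterol hydroxylase, was the 1 higher gene, at 1.96. The sterol genes had a median of -0.57 beside these, and whether the lists differ was not tested.

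**Figure D4:**
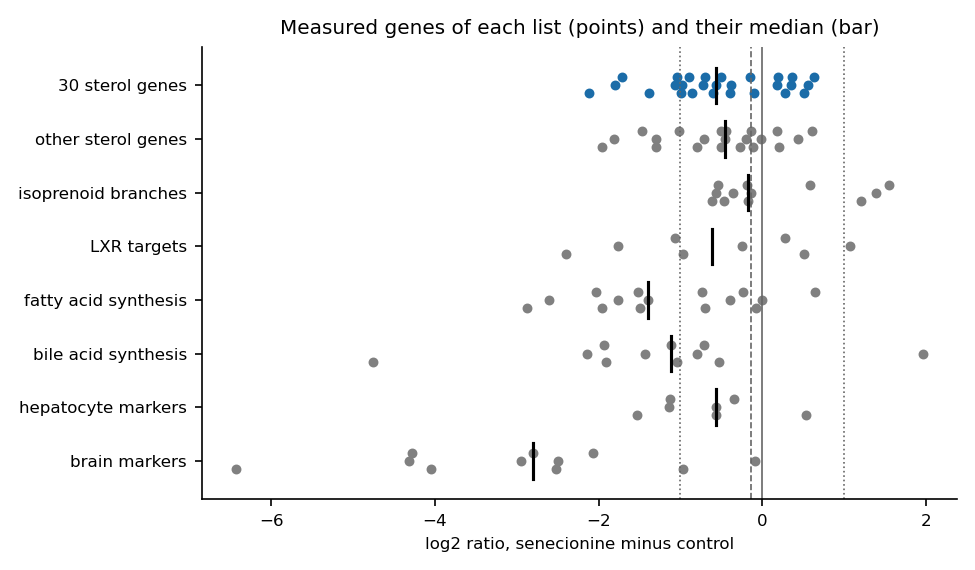
Log2 ratios, senecionine minus control (x axis), of the measured genes (points) of 8 lists (rows), with each list's median as a bar and the median of all measured genes dashed. The sterol genes centre on -0.57, fatty acid synthesis on -1.40, bile acid synthesis on -1.12 and brain markers on -2.80.

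The reported ratios kept their sign for 24 of the 27 measured genes in the 10 settings, though for the 22 genes with 1 probe only 5 of these can move the ratio. The 3 others were Idi1, Fdps and Npc2. The members' median exceeded neither 0 nor the median of all measured genes in any of them. The members at least 2-fold lower numbered from 4 to 9, with 0 higher throughout, where 7.86% to 22.5% of all measured genes were higher. With median scaling 33.3% of members and 21.3% of all measured genes were lower, and with normexp correction 14.8% and 9.75%. The members' 14.8% lay slightly below all measured genes with the 75th percentile over detected probes (15.3%), quantile normalization (15.9%) and cyclic loess (16.7%).

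**Figure D5:**
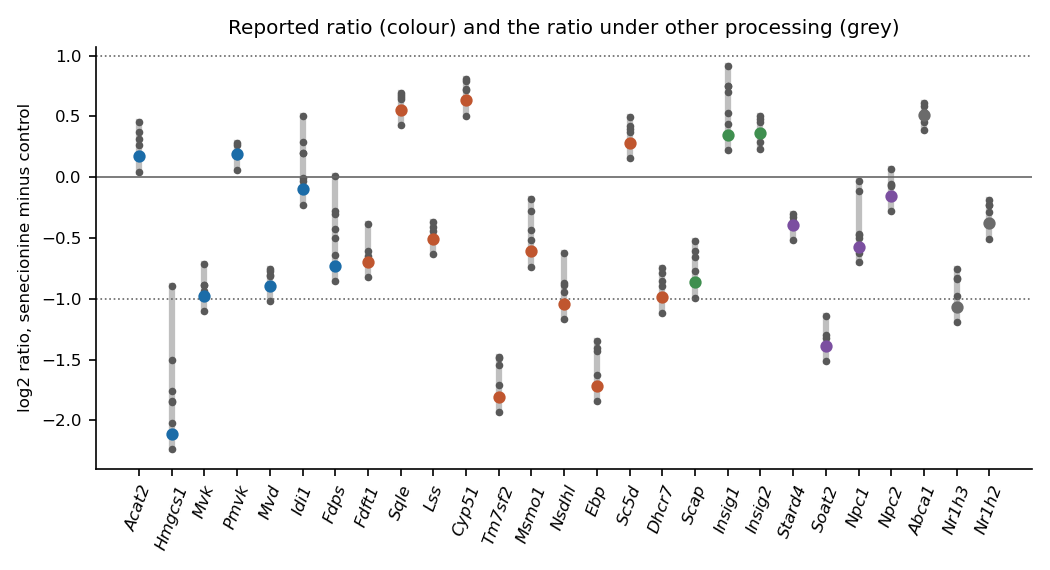
Log2 ratio, senecionine minus control (y axis), of each measured sterol gene (x axis) as reported (coloured) and under 10 other processing settings (grey points, with a bar over their range). Tm7sf2, Ebp and Soat2 stay below -1 throughout, and Hmgcs1 runs from -2.24 to -0.89 because its dimmer probe differs.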

How the data were processed

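The authors' spot intensity values were extracted with Agilent Feature Extraction, version 10.7.3.1 according to the file headers and the submitters' processing notes, with background subtracted within each array and no scaling between arrays. The deposited series table holds log2 values for 7404 probes, all past 2-fold (smallest absolute difference 1.00), with column medians of 6.03 (control) and 6.10 (senecionine). How it was scaled is not stated in the labels, and all 7355 of its probes compared here had the same direction as the scanner signals.

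From the processed signal, log2 was taken and centred on the 75th percentile of the non-control spots of that array (101 and 134 intensity units), and spots of a probe were averaged. Spots with an outlier flag were left out, 522 on the control and 497 on the senecionine array, and 0 were saturated. Probes were named by unversioned RefSeq accession through the GRCr8 gene table, 17250 of 40516. The scanner headers name an older build than GRCr8, and coordinates are given for RefSeq promoters only. A gene's brightest probe well above background on both arrays represents it, and the threshold was a log2 ratio of 1 in either direction. All 30 members are given, and up to 4 genes with the largest absolute ratio of each other list. From the list of other sterol genes, 2 further genes were left out of all counts and are not reported here. Elovl5 and others stand in several lists. Members and lists were chosen with earlier results of these data known. Having 1 array per group limits the precision. Alternatives were median, quantile and cyclic loess scaling, the 75th percentile over detected probes, normexp with offset 50 on median spot signals (the files hold no mean signals), other detection filters, flags, probe rules and fold thresholds, and the authors' values. The counting was tested on simulated data, with planted changes well past the threshold and spot error as the only noise. That test cannot speak for genes near the threshold or for disagreement between probes. Proteins of Insig1 and Insig2, planned for display, are not used here. Normexp and cyclic loess used limma 3.58.1 in R 4.3.3, figures matplotlib 3.10.9, and everything else Python 3.11.15 with pandas 2.3.3 and numpy 2.4.6.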

Additional observations from a re-analysis of the deposited data

How the results depend on the processing

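At a 1.5-fold threshold 13 sterol genes were lower and 1 higher, and at 3-fold 3 were lower. Over all measured genes, 2424 were lower and 1642 higher at 1.5-fold, and 615 and 366 at 3-fold. With normexp correction 761 genes were lower. With no detection filter 3001 were lower and 2393 higher, and with detection on 1 array only 2388 were higher and the median of all genes was 0.10. Median scaling moved the median of all genes to -0.26 and the members' median to -0.70, and under it 9 members were lower, Mvk, Mvd and Dhcr7 added. The members' median lay 0.43 below that of all genes with each scaling by a constant, 0.35 below with quantile normalization, 0.37 with cyclic loess and 0.30 with normexp. Over all settings this gap ran from 0.27 with each gene's dimmest detected probe to 0.64 with detection on 1 array only. In the authors' deposited table Hmgcs1, Tm7sf2, Ebp and Soat2 are listed as lower, with log2 differences of -1.78, -1.50, -1.32 and -1.38. Listed there as higher are 2 probes of Insig1, at 1.27 and 1.02. Neither is its brightest probe, so Insig1 is not counted as higher. That table holds selected probes, so no median was taken from it. The ratio of Idi1 reached 0.50 with its dimmer probe, and that of Npc2 0.07 with normexp. No paired analysis was possible because each group has 1 array.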

Other observations

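Another list holds genes that draw on the isoprenoid diphosphates made before squalene. Of 12 measured among 15 listed, 3 were at least 2-fold higher after senecionine and 0 lower, and 8 were below 0 (median log2 ratio -0.18), where 11.2% of all measured genes were higher. Trit1, which puts an isopentenyl group on transfer RNA, went from 23.9 to 92.7 intensity units before scaling (1.55 ± 0.33). Pggt1b, the specific subunit of geranylgeranyl transferase, went from 38.6 to 134 (1.39 ± 0.26), and Fnta, the subunit that this enzyme shares with farnesyl transferase, from 93.6 to 286 (1.20 ± 0.22). Dolk, the dolichol kinase, had a ratio of -0.61 ± 0.20. All 3 higher genes were dim on the control array, and with normexp correction 0 of the 12 passed 2-fold upward.

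Of the 29 other sterol genes with a usable probe, 6 were detected after senecionine only, a share of 20.7% that lay near the 19.1% of all named genes. The detection floor was lower on the senecionine array. The 6 were the cholesterol esterifying enzyme Soat1, the oxysterol-making Ch25h, and Erlin1, Rnf145, Nceh1 and Lima1.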
